A study of Saccharomyces cerevisiae with 6 samples.

Results

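Transcript levels of 9 genes were described, the eisosome genes *PIL1*, *LSP1*, *SUR7*, *FMP45*, YLR414C (*PUN1*) and *NCE102* and the flavodoxin-like genes *YCP4*, *RFS1* and *PST2*. They are 9 of the 7126 genes in the deposited count table and were picked by name, with earlier results of the strain comparison in these samples known. All 9 passed the filter on low counts that left 6083 genes for testing. The tested strain, *kcs1*-S537A,S646A (*kcs1* mutant below), is a diploid of the filamentous Σ1278b background. It lacks *KCS1* on both homologous chromosomes (*kcs1*Δ/Δ) and carries, on the low-copy *URA3* plasmid pRS416, a *KCS1* gene with the substitutions S537A and S646A. The control strain, called wild type, has the same 2 deletions and carries pRS416 with unmodified *KCS1*. *KCS1* encodes an inositol polyphosphate kinase that makes pyrophosphorylated InsP7, and the substituted serines are residues at which the study examined phosphorylation by the Snf1 kinase. For each strain, 3 single colonies were grown in low-nitrogen medium, with 20 h given on the sample labels, and poly(A) RNA was sequenced.

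Eisosomes are protein assemblies under furrow-shaped invaginations of the yeast plasma membrane. The BAR domain proteins Pil1 and Lsp1 form the curved scaffold on the cytoplasmic side, and Sur7, its relatives and Nce102 are membrane-spanning proteins of the same patches, a domain also called the membrane compartment of Can1. The patches hold nutrient permeases, and they are tied to sphingolipid sensing through the Pkh and Ypk kinases, which act on Pil1 and Lsp1, and through Slm1 and Slm2, which link them to the TORC2 kinase. Pst2, Rfs1 and Ycp4 belong to a family of flavodoxin-like proteins related to quinone reductases that is found at the same membrane patches. In *Candida albicans*, relatives of these proteins protect the membrane against oxidation.

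Between 20529351 and 22701020 fragments were counted per *kcs1* mutant sample, and between 17950923 and 20822332 per wild-type sample. *KCS1* itself had 272.2, 796.7 and 347.4 CPM (counts scaled to a common library size with the TMM factors of edgeR) in *kcs1* mutant replicates 1, 2 and 3, and 366.7, 309.1 and 340.6 CPM in wild type. Point substitutions leave the transcript in place, so this level does not check the labels. Of the 10 haploid and mating genes listed as low in a diploid, none was at 0, and their values lay between 0.98 and 57.6 CPM. Their summed level was between 131.6 and 149.4 CPM in the *kcs1* mutant and between 108.8 and 126.6 CPM in wild type. *STE4* alone had a mean of 54.4 CPM in the *kcs1* mutant and 38.3 CPM in wild type. Log2 fold changes were above 0 in 8 of the 10 and below 0 in 2, where 46.8% of all genes tested lay below 0. The part of these levels in the results below was not tested. Transcripts of chromosome XIV were lower as a group in all 3 *kcs1* mutant samples, with a median log2 fold change of -0.52 over 407 genes, and those of chromosome VI were lower in *kcs1* mutant replicate 1 alone, with a median log2 difference of -0.96 from wild type. None of the 9 genes lies on either chromosome. The 3 colonies of each allele share 1 strain, so the allele cannot be told apart from other differences between the strains. In bulk RNA, fewer cells that express a gene and less of its RNA per cell cannot be told apart either.

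In both eisosome scaffold genes the *kcs1* mutant samples lay below all wild-type samples, which held for 14.8% of the genes tested. Outside chromosomes XIV and VI it held for 9.9%. *PIL1* passed an adjusted *p*-value of 0.05 in edgeR and *LSP1*, at an adjusted *p*-value of 0.069, did not. *PIL1*, which encodes the main scaffold protein, lies on the minus strand of chromosome VII from 649598 to 650617 (file coordinates, which match RefSeq R64 for all 9 genes). It had 441.6, 518.1 and 519.8 CPM in the *kcs1* mutant, and 675.6, 712.7 and 726.8 CPM in wild type. The *kcs1* mutant value was thus 70.0% of wild type, a log2 fold change of -0.52 with a standard error of 0.10. *LSP1*, its paralog on chromosome XVI (550632 to 551657, minus strand), had 244.7, 264.0 and 282.6 CPM in the *kcs1* mutant, and 320.5, 355.0 and 344.8 CPM in wild type. The log2 fold change of *LSP1* was -0.37 (standard error 0.094). In both genes *kcs1* mutant replicate 1 was the lowest of the 6 samples.

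*PIL1* and *LSP1* are close relatives, with 73.0% identical residues over 333 aligned positions. Their coding bases are 70.8% identical, and the longest run of identical bases is 27 long, at the first codons of both genes. It is shown because it bounds the stretch in which a read could not be assigned to one of them, and it is shorter than the reads. It covers coding bases 1 to 27 of each gene, read here from the S288C reference, as the Σ1278b genome was not used here.
PIL1 and LSP1 shared run: atgcacagaacttactctttaagaaat
In FPKM, fragments per kilobase of gene, scaled by sequencing depth, *PIL1* stood at 1.82, 1.97 and 1.85 times *LSP1* in the 3 *kcs1* mutant samples, and at 2.12, 2.02 and 2.12 times *LSP1* in wild type. The ratio was therefore lower in each *kcs1* mutant sample than in any wild-type sample, by a small margin for *kcs1* mutant replicate 2.

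**Figure D1:**
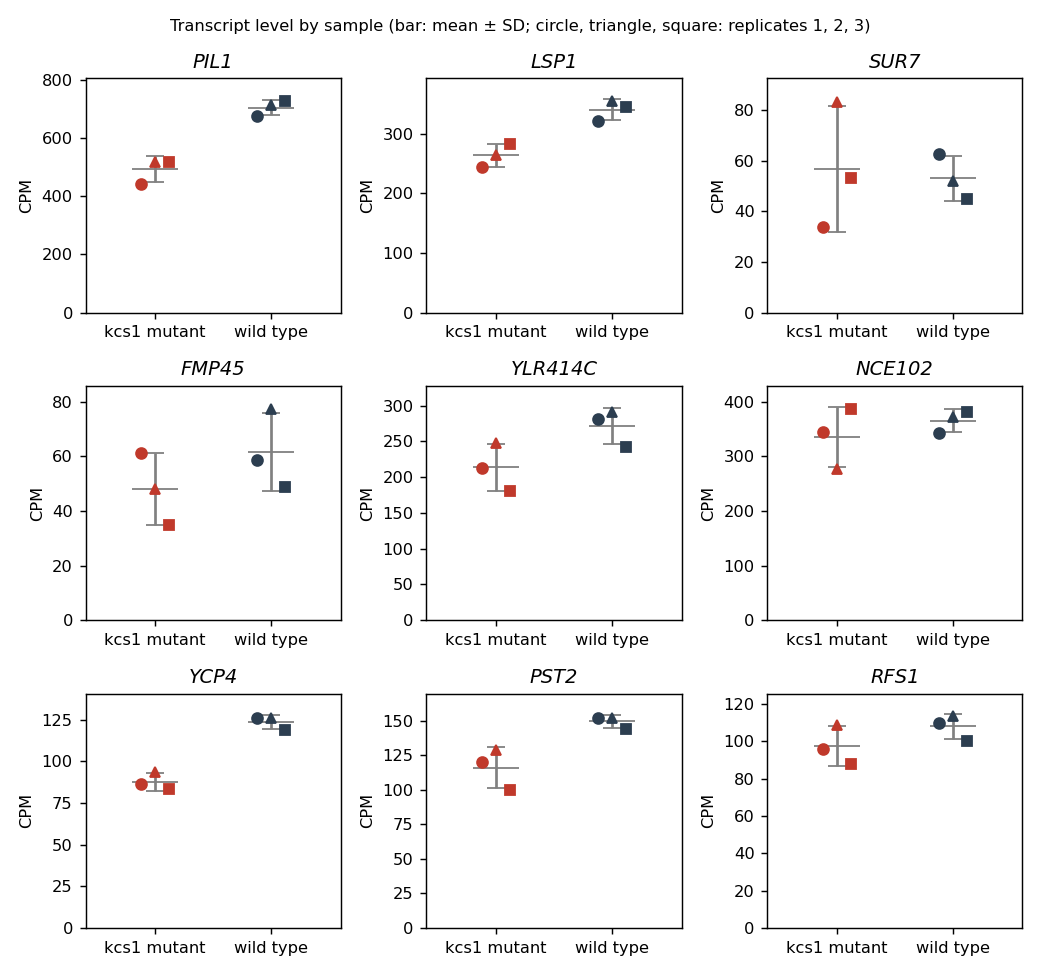
Transcript level of each of the 9 genes in CPM (y axis, starting at 0) in the *kcs1* mutant (left, red) and in wild type (right, dark), with circles, triangles and squares for replicates 1, 2 and 3 and bars for the mean ± SD (n = 3). The *kcs1* mutant points of *PIL1*, *LSP1*, *YCP4* and *PST2* all lie below the wild-type points, and those of the other 5 genes overlap with them.

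Among the Sur7 family, no gene separated the strains. YLR414C encodes Pun1, a plasma membrane protein that is induced under nitrogen limitation and takes part in cell wall integrity, and lies on chromosome XII from 953353 to 954144 (minus strand). It had 212.8, 247.1 and 180.9 CPM in the *kcs1* mutant, and 281.8, 290.3 and 242.4 CPM in wild type. Only *kcs1* mutant replicate 2 reached into the wild-type range, above wild-type replicate 3. The log2 fold change was -0.35 (standard error 0.13).

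*FMP45* (chromosome IV, 60872 to 61801, minus strand) encodes a relative of Sur7 that is needed for normal sporulation and sphingolipid content. Its level was 61.3, 48.1 and 35.0 CPM in the *kcs1* mutant, and 58.8, 77.3 and 48.8 CPM in wild type, a log2 fold change of -0.36 (standard error 0.22). The strains overlapped between 48.8 and 61.3 CPM. Without wild-type replicate 2 the log2 fold change was -0.16. It was -0.17 without *kcs1* mutant replicate 3 and -0.57 without *kcs1* mutant replicate 1.

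*SUR7* (chromosome XIII, 170402 to 171310, plus strand), which encodes the defining membrane protein of the patches, had the widest spread of the 9 genes among the *kcs1* mutant samples. It had 33.8, 83.2 and 53.3 CPM in the *kcs1* mutant, and 62.6, 52.0 and 44.9 CPM in wild type. The lowest and the highest of the 6 values were both *kcs1* mutant samples, and the wild-type values lay between them. The SD of log2 CPM was 0.65 in the *kcs1* mutant and 0.24 in wild type, where *FMP45* spread more widely (0.40 in the *kcs1* mutant and 0.33 in wild type). These values stood against medians of 0.15 in the *kcs1* mutant and 0.068 in wild type over the 3032 genes at or above the lowest level of the 9. The log2 fold change of 0.097 (standard error 0.29) turned to -0.29 without *kcs1* mutant replicate 2 and to -0.012 without wild-type replicate 3, and it was 0.36 without *kcs1* mutant replicate 1. *KCS1* was also highest in *kcs1* mutant replicate 2, and the part of that library's plasmid gene level in the *SUR7* value was not tested.

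*SUR7*, *FMP45* and YLR414C are distant relatives, with 29.1% to 32.5% identical residues in aligned positions. The closest pair of the family is *FMP45* and YNL194C, a gene of chromosome XIV, with 54.5% identity. YNL194C was scarce, at 8.73 ± 2.57 CPM in the *kcs1* mutant and 11.7 ± 0.693 CPM in wild type (SD, n = 3 each), and its log2 fold change of -0.42 had an adjusted *p*-value of 0.30 in edgeR.

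*NCE102* (chromosome XVI, 829918 to 830439, plus strand) encodes a membrane protein that senses sphingolipids and promotes the assembly of Pil1 at the furrows. It had 345.5, 277.2 and 386.1 CPM in the *kcs1* mutant, and 342.7, 371.5 and 382.2 CPM in wild type. The highest and the lowest values were both *kcs1* mutant samples, and the log2 fold change was -0.12 (standard error 0.13). Without *kcs1* mutant replicate 2 it was -0.0030, and without *kcs1* mutant replicate 3 it was -0.23. Its paralog *FHN1*, with 61.8% identical residues, was at 3.37 ± 1.34 CPM in the *kcs1* mutant and 3.06 ± 1.02 CPM in wild type (SD, n = 3 each). Per gene length, *NCE102* exceeded *FHN1* by 64.7 to 212.1 times in the *kcs1* mutant and by 90.5 to 183.7 times in wild type.

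All 3 flavodoxin-like genes had log2 fold changes below 0, to unequal extents. *YCP4*, on the minus strand of chromosome III from 119575 to 120318, had 86.5, 93.7 and 83.3 CPM in the *kcs1* mutant, and 126.0, 126.4 and 119.0 CPM in wild type. The samples of a strain lay close together and the strains lay apart. The *kcs1* mutant level was 70.9% of wild type, and the log2 fold change was -0.50 (standard error 0.076). *PST2* (chromosome IV, 504099 to 504695, minus strand), which the files describe as induced by oxidative stress through Yap1, had 120.0, 129.0 and 99.7 CPM in the *kcs1* mutant, and 152.4, 152.3 and 144.4 CPM in wild type. Its strains did not overlap, and the log2 fold change was -0.37 (standard error 0.10). *RFS1* (chromosome II, 338720 to 339352, minus strand) had 95.7, 108.9 and 88.1 CPM in the *kcs1* mutant, and 109.8, 113.7 and 100.5 CPM in wild type, with overlap. Here the log2 fold change was -0.15 (standard error 0.098).

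The flavodoxin-like proteins are closer to one another than the Sur7 relatives are. *YCP4* and *PST2* are 67.7% identical over 198 aligned residues, *RFS1* and *PST2* 56.1%, and *YCP4* and *RFS1* 50.8%. *LOT6*, a quinone reductase with the same fold, is 28.6% to 32.1% identical to them and had 22.0 ± 4.79 CPM in the *kcs1* mutant and 24.4 ± 2.44 CPM in wild type (SD, n = 3 each). In FPKM, *YCP4* stood at 0.77, 0.73 and 0.80 times *RFS1* in the *kcs1* mutant, and at 0.98, 0.95 and 1.01 times *RFS1* in wild type, so that the order of this pair per gene length was level in wild type and lower for *YCP4* in each *kcs1* mutant sample. *PST2* stood at 1.73, 1.72 and 1.49 times *YCP4* in the *kcs1* mutant, and at no more than 1.51 times in any wild-type sample, and *kcs1* mutant replicate 3 was not above wild type.

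**Figure D2:**
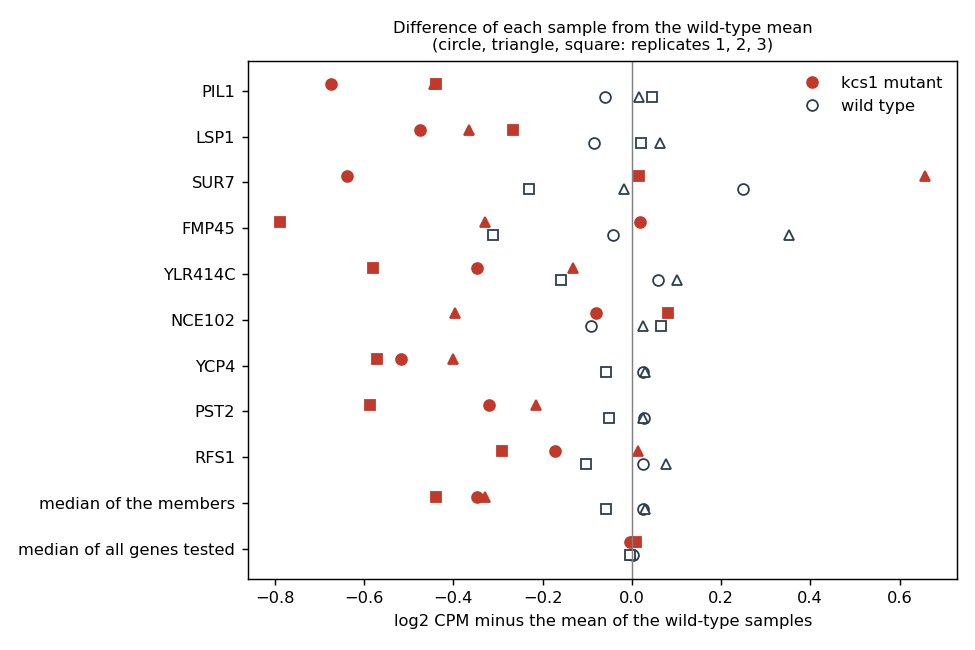
Log2 CPM of each sample minus the mean of the wild-type samples (x axis) for the 9 genes, for their median and for the median of the 6083 genes tested, with the *kcs1* mutant in filled red and wild type in open dark symbols. The median of the 9 genes is -0.35, -0.33 and -0.44 in *kcs1* mutant replicates 1, 2 and 3, and the median of all genes stays within 0.01 of 0 in every sample.

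Over the 9 genes, 8 had a log2 fold change below 0, where 46.8% of all genes tested did. The median was -0.36, against 0.015 for all genes tested. In edgeR, *YCP4* and *PIL1* were among the genes with an adjusted *p*-value under 0.05 that were lower in the *kcs1* mutant, a call made for 4.67% of the genes tested and for 0.902% of the 5545 genes tested that lie outside chromosomes XIV and VI, as the 9 do. Of all 6083 genes tested, 5.66% were called in either direction and 0.986% were called higher. At an unadjusted *p*-value under 0.05 in edgeR, *LSP1*, *PST2* and YLR414C came in addition, 5 of the 9 in all, where 20.1% of the genes tested passed. In 4 of the 9, all *kcs1* mutant values lay below all wild-type values, which held for 14.8% of the genes tested and for 9.9% of those outside chromosomes XIV and VI. As the 9 genes were picked with this comparison known, these counts describe them and test nothing. The call of *YCP4* was lost without wild-type replicate 1 or 2, and that of *PIL1* without *kcs1* mutant replicate 3 or any wild-type replicate, while the log2 fold changes over the samples left out in turn stayed between -0.55 and -0.46 for *YCP4* and between -0.56 and -0.45 for *PIL1*. When transcripts of chromosomes XIV and VI were removed before normalization, 16 genes had an adjusted *p*-value under 0.05 in place of 344. *YCP4* was among the 16 and *PIL1* was not, and their log2 fold changes were -0.52 for *YCP4* and -0.54 for *PIL1*.

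Among themselves, the genes did not follow the samples in the same way. The most alike profiles of log2 CPM over the 6 samples, by the root mean square difference after centring each gene, were those of *PST2* and YLR414C (0.065), *PIL1* and *LSP1* (0.087) and *YCP4* and *PST2* (0.093). The least alike were those of *SUR7* and *FMP45* (0.59), although both encode Sur7 family proteins. *SUR7* was lowest and *FMP45* highest in replicate 1 among the *kcs1* mutant samples, and *NCE102* was lowest in replicate 2. Among 5932 other genes with a mean log2 CPM above 0, those most like *PIL1* were *RPD3*, a histone deacetylase gene (0.033), and *BNI1*, a formin gene (0.044). Those most like *YCP4* were *GIM3*, a prefoldin subunit gene (0.036), and *AAD14*, a putative aryl-alcohol dehydrogenase gene (0.037). All 4 of these lie on chromosome XIV, whose transcripts were lower as a group by about the same amount, and neither *PIL1* nor *YCP4* does.

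Per gene length, the 9 genes spanned an order of magnitude. *NCE102* had 643.9 ± 105 FPKM in the *kcs1* mutant and 699.7 ± 40.9 FPKM in wild type, and *PIL1* had 483.3 ± 43.4 FPKM in the *kcs1* mutant and 690.7 ± 27.7 FPKM in wild type (SD, n = 3 each). *NCE102* was thus above *PIL1* in all 3 *kcs1* mutant samples, whereas in wild type the values of these genes overlapped. By mean FPKM over the 6 samples, YLR414C (306.0), *LSP1* (294.1), *PST2* (222.6), *RFS1* (162.3) and *YCP4* (142.1) followed, and *SUR7* (60.5) and *FMP45* (59.0) were lowest. YLR414C and *LSP1* changed places between samples, as did *SUR7* and *FMP45*, and *RFS1* and *YCP4* did so in wild-type replicate 3. The genes stood between percentile 59.0 (*FMP45*) and percentile 94.8 (*NCE102*) of the genes tested. With TMM-scaled counts per kilobase in place of the deposited FPKM, all 9 kept their rank.

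**Figure D3:**
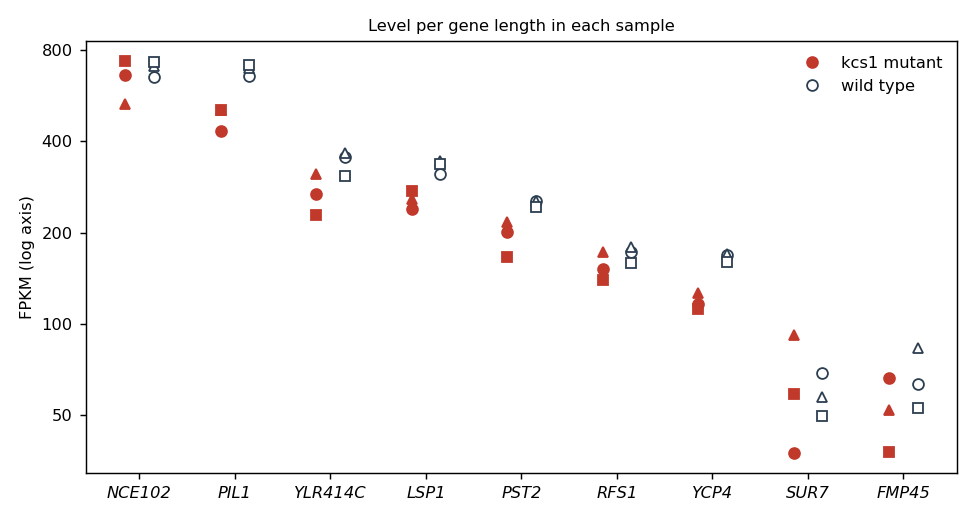
FPKM of each gene in each sample on a log axis, ordered from left to right by the mean over the 6 samples, with the *kcs1* mutant in filled red left of wild type in open dark symbols. *NCE102* and *PIL1* lead, *SUR7* and *FMP45* lie lowest at means of 60.5 and 59.0, and the *kcs1* mutant symbols of *PIL1*, *LSP1*, *PST2* and *YCP4* sit below those of wild type.

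The 500 bases before each start codon were searched for a few short motifs in the S288C reference, on both strands. The window ends at the start codon because the gene coordinates of the files begin there. AGGGG, which reads CCCCT where the match is on the other strand, the core of the stress response element that Msn2 and Msn4 bind, was found before 8 of the 9 genes and before 34.4% of 5735 protein-coding genes tested. It occurred 5 times before *PIL1*, 3 times each before *LSP1* and *NCE102*, 2 times before *YCP4* and once each before *RFS1*, *PST2*, *FMP45* and YLR414C. No match was found before *SUR7*. For the 4 genes without overlap between the strains, a choice of the matches is shown, with the motif in capitals and each sequence given on the strand of its gene.
PIL1, 293 bases before the start codon, chrVII:650896-650920: tggccgcgccCCCCTcacgcacggg
PIL1, 260 bases before the start codon, chrVII:650863-650887: agggcggcgtCCCCTgtttttctgc
LSP1, 215 bases before the start codon, chrXVI:551858-551882: ccgagtgaaaAGGGGattgcgaaag
YCP4, 289 bases before the start codon, chrIII:120593-120617: gaaggcgcttCCCCTtcttggaact
PST2, 193 bases before the start codon, chrIV:504874-504898: tcgttagcaaCCCCTttcccacaat
The full GATA factor site of nitrogen-regulated genes, GATAAG on either strand, was found before none of the 9 genes and before 22.7% of the protein-coding genes, while its core GATAA on either strand, which the full site contains, was found before 6 of the 9 and before 78.4% of all. TTACTAA, which on the other strand reads as TTAGTAA, a site of the oxidative stress factor Yap1 that was added after the files described *PST2* as a Yap1 target, was found before *YCP4* and *PST2* and before 11.9% of the protein-coding genes. These 3 matches are shown for the flavodoxin-like genes that carry them, and *RFS1* had no match in its window.
YCP4, 450 bases before the start codon, chrIII:120752-120778: tacataaaatTTACTAAtggttggaaa
YCP4, 351 bases before the start codon, chrIII:120653-120679: tatgacccttTTAGTAAtaacttatta
PST2, 265 bases before the start codon, chrIV:504944-504970: cttgactgtcTTAGTAAaaaattaata
A match is a description of the letters and not a site of binding in these cells.

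**Figure D4:**
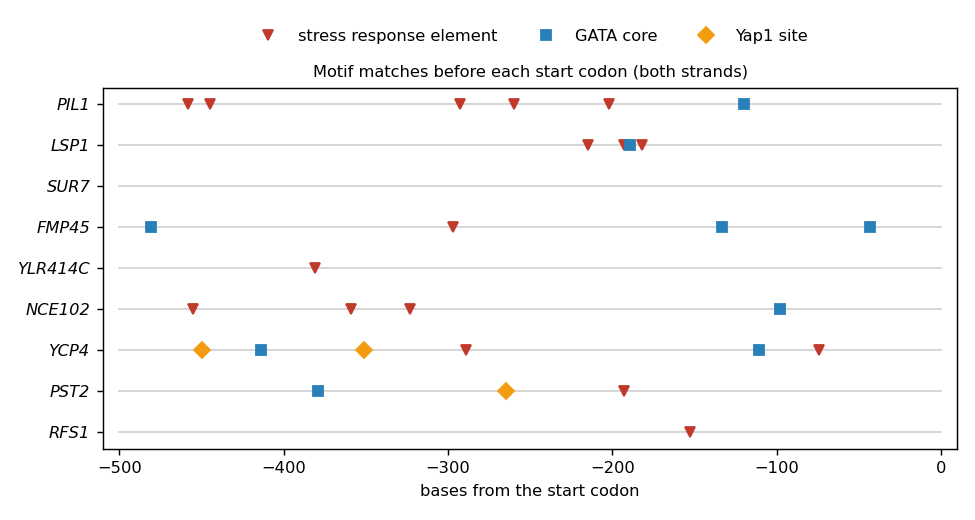
Matches to AGGGG (red triangles), GATAA (blue squares) and TTACTAA (orange diamonds), on both strands, over the 500 bases before the start codon of each gene (x axis, in bases from the start codon). The red triangles are found before every gene except *SUR7*, and the orange diamonds before *YCP4* and *PST2*.

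General stress genes, a group that includes Msn2 and Msn4 targets, were listed for comparison. Log2 fold changes were above 0 in 5 of the 10 and below 0 in 5, where 46.8% of all genes tested lay below 0. Of 10, 1 was lower in edgeR and none higher, where 4.67% of all genes tested were lower and 0.986% higher. *SOD2*, which encodes the mitochondrial superoxide dismutase, passed in addition in DESeq2 and at an unadjusted *p*-value under 0.05 in edgeR. The latter held for 20.1% of all genes tested. *SOD2* had a log2 fold change of -0.48 (adjusted *p* = 0.078 in edgeR). The list median of -0.040 had no stable direction. It was -0.42 without *kcs1* mutant replicate 1, -0.11 without wild-type replicate 1, and 0.065, 0.036 and 0.041 without *kcs1* mutant replicate 2, *kcs1* mutant replicate 3 or wild-type replicate 2. Their summed level was between 1461 and 2147 CPM in the *kcs1* mutant and between 1893 and 2255 CPM in wild type, with overlap. *HSP12*, which encodes a membrane-protecting stress protein, had 257.9 ± 31.4 CPM in the *kcs1* mutant and 460.3 ± 47.5 CPM in wild type (SD, n = 3 each), and its log2 fold change was -0.84 (adjusted *p* = 0.0092 in edgeR). It lies on chromosome VI, whose group shift was in *kcs1* mutant replicate 1 alone, and its values were 281.7, 222.4 and 269.7 CPM in *kcs1* mutant replicates 1, 2 and 3, against 406.6, 496.7 and 477.7 CPM in wild type. The adjusted *p*-value was 0.061 without wild-type replicate 2 and 0.053 without wild-type replicate 3, in edgeR.

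The other eisosome genes gave 2 decreases among 8 and no increase. Both decreases were in genes of chromosome XIV, which holds 3 of the 8. Of all genes tested on chromosome XIV, 233 of 407 were called lower, and 50 of 5545 were outside chromosomes XIV and VI. The median of the 8 was -0.33, and it was -0.20 with no gene passing when chromosomes XIV and VI were left out. *SLM2*, whose product links the patches to TORC2, had 37.7 ± 1.34 CPM in the *kcs1* mutant and 58.1 ± 1.02 CPM in wild type (SD, n = 3 each), and its log2 fold change was -0.62 (adjusted *p* = 0.0041 in edgeR). *MDG1*, which encodes a plasma membrane protein involved in pheromone signaling, had 34.3 ± 3.45 CPM in the *kcs1* mutant and 58.7 ± 1.02 CPM in wild type, with a log2 fold change of -0.77 (adjusted *p* = 0.0041 in edgeR). Of the 5 listed genes on other chromosomes, none passed in edgeR, while *EIS1* alone did at an unadjusted *p*-value under 0.05 and in DESeq2. *EIS1*, which encodes a further eisosome component and lies on chromosome XIII, had log2 fold change -0.41 and no overlap between the strains, with an adjusted *p*-value of 0.085 in edgeR. For *SEG1*, an organizer of the scaffold, the log2 fold change was -0.25 (adjusted *p* = 0.39 in edgeR). It was -0.18 for *SLM1*, -0.0011 for *SEG2* and 0.14 for *FHN1*, and the strains overlapped in *SEG1* and in each of these.

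Permeases that reside in the patches (*CAN1*, *FUR4*, *TAT2* and *MUP1*) had a median of -0.023 (-0.11 to 0.050 with each sample left out), and none of the 4 passed. None passed either of the 12 genes of the Pkh and Ypk kinases and TORC2, with a median of 0.019 (-0.014 to 0.080 with each sample left out, and -0.046 with library totals), or of 7 other genes of flavodoxin-fold and quinone or enone reductases, with a median of -0.091 (-0.15 to -0.037). At an unadjusted *p*-value under 0.05 in edgeR, 1 permease gene (*MUP1*), 4 kinase and TORC2 genes and 0 reductase genes passed, and adjusted DESeq2 gave 0, 2 (*YPK2* and *LST8*) and 0. Of all 6083 genes tested, 5.66% passed adjusted and 20.1% unadjusted in edgeR, and 588 genes passed in DESeq2. The counts of each list here stand beside these shares. In the list of sphingolipid synthesis and its regulators, 1 of 24 genes was higher and none was lower, with a median of 0.047 that was -0.015 with library totals. At an unadjusted *p*-value under 0.05 in edgeR 5 passed, *LAC1*, *AUR1* and *SCS7* with log2 fold changes above 0 and *LCB1* and *IPT1* below 0, and DESeq2 gave 2, *LAC1* and *SCS7*. *LAC1*, which encodes a ceramide synthase subunit, had 210.9 ± 31.2 CPM in the *kcs1* mutant and 144.9 ± 5.68 CPM in wild type (SD, n = 3 each), which gave a log2 fold change of 0.54 (adjusted *p* = 0.034 in edgeR). Its adjusted *p*-value was between 0.061 and 0.16 in edgeR without *kcs1* mutant replicate 3 or any wild-type replicate, and 0.12 without chromosomes XIV and VI. None of the 7 sporulation genes passed (0 in DESeq2, and 2, both lower, at an unadjusted *p*-value under 0.05 in edgeR). Their median of 0.14 was -0.23 without *kcs1* mutant replicate 2, 0.010 without wild-type replicate 3, and 0.25 and 0.26 without *kcs1* mutant replicate 3 or wild-type replicate 1. Their summed level was between 67.2 and 102.9 CPM in the *kcs1* mutant and between 74.2 and 88.5 CPM in wild type. Of the haploid and mating genes, 1 of 10 passed (2 at an unadjusted *p*-value under 0.05 in edgeR, 1 in DESeq2). It was *STE4*, which encodes a G protein subunit of the pheromone response, with a log2 fold change of 0.51 (adjusted *p* = 0.028 in edgeR). Its adjusted *p*-value was between 0.072 and 0.14 in edgeR without *kcs1* mutant replicate 3 or without wild-type replicate 2 or 3, and 0.10 without chromosomes XIV and VI.

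**Figure D5:**
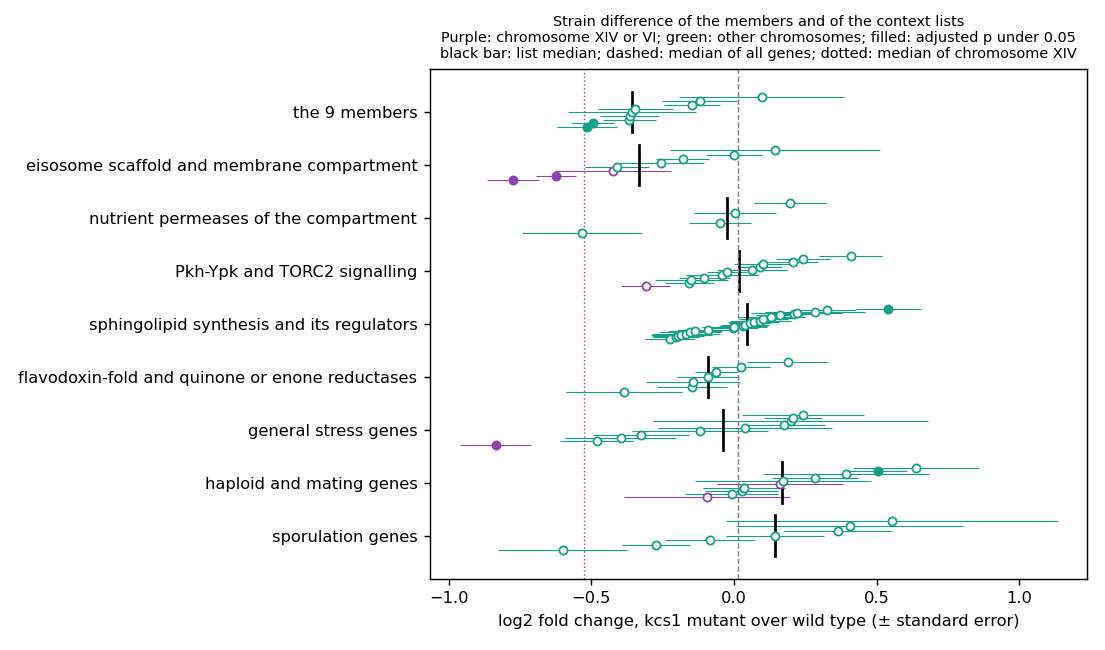
Log2 fold change, *kcs1* mutant over wild type, with its standard error, for the 9 genes and for each gene of 8 context lists, with black bars for list medians and purple symbols for genes on chromosomes XIV and VI. The median of the 9 genes is -0.36 and that of the other eisosome genes -0.33, whose 2 filled symbols, *SLM2* and *MDG1*, are both purple (without chromosomes XIV and VI the medians are -0.38 for the 9 and -0.20 for the other eisosome genes), and the other list medians lie between -0.091 and 0.17.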

How the data were processed

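The authors' sequencing company filtered the paired-end reads. Mapping was done with HISAT2 2.0.5, and fragments were assigned to genes by featureCounts 1.5.0-p3. Deposited were the raw counts from this step and FPKM that the authors computed from them. The build and the strand setting are not given in the sources used here. Of 7126 genes, 6048 have an identifier in RefSeq R64 and 5994 have identical coordinates there. A table of mean FPKM per strain was not used.

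The main test was that of edgeR 4.0.16 under R 4.3.3 (filterByExpr with a minimum of 10 counts, TMM, glmQLFit and glmQLFTest, 2-sided, Benjamini-Hochberg over 6083 genes, threshold 0.05). Total counts were between 17950923 and 22701020 per sample. Standard errors were obtained from the log2 fold change and the root of the F statistic. Centred profiles used log2 CPM with a prior count of 2. Identities are from global alignment of the translated R64 coding sequences in Biopython 1.88 (BLOSUM62, gap penalties 10 and 0.5). As no promoter table was used, windows of 500 bases before the start codon were read from R64. Coding sequences and promoters of Σ1278b were not analysed here.

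The samples are separate colonies, 3 per strain, and no source names a pairing. The 9 genes and the context lists were chosen with earlier results of these data known. Genes named are the 9, their relatives *FHN1*, YNL194C and *LOT6*, list genes with an adjusted *p*-value under 0.05, and the nearest profiles of *PIL1* and *YCP4*. *KCS1*, *EIS1*, *SEG1*, *SEG2*, *SLM1*, *CAN1*, *FUR4*, *TAT2*, *MUP1*, *YPK2*, *LST8*, *SOD2*, *AUR1*, *SCS7*, *LCB1*, *IPT1* and the nearest profiles YDR391C, *CTS1*, *TSL1* and *CRP1* fall outside this rule and were named after their values were seen. Alternatives were DESeq2 size factors or library totals, no count filter or a stricter one of 10 in each sample, DESeq2 1.42.0, limma-voom and limma-trend on log2(FPKM + 1) with limma 3.58.1, a replicate block, removal of chromosomes XIV and VI, unadjusted *p*-values and each sample left out in turn. The fit was also run on simulated data, and no statement here rests on the outcome.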

Additional observations from a re-analysis of the deposited data

How the results depend on the processing

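Of the 9 genes, 8 had log2 fold changes below 0 in the main comparison and in every alternative but 2, without *kcs1* mutant replicate 2 or wild-type replicate 3, where all 9 did. The number of genes with an adjusted *p*-value under 0.05 was 344 in edgeR (60 higher and 284 lower) and 588 in DESeq2. It was between 84 and 481 with each sample left out, and 16 without chromosomes XIV and VI (9 higher and 7 lower). Of the 344, 110 lie outside these chromosomes (60 higher and 50 lower). At an unadjusted *p*-value under 0.05 in edgeR, 1224 genes passed. Of the 9 genes, 2 had such an adjusted *p*-value in edgeR, 4 in DESeq2 (*PST2* and *LSP1* in addition), 1 without chromosomes XIV and VI, and between 0 and 3 with each sample left out, and 5 had an unadjusted *p*-value under 0.05. The median log2 fold change of the 9 was -0.36, -0.43 with library totals, where the median of all genes tested was -0.048, and between -0.39 and -0.24 with each sample left out. The causes of these differences were not tested. With a replicate block, 282 genes passed, 257 of them shared with the 344, and *YCP4* and *PIL1* were among them. The deviations of same-numbered samples correlated at -0.13, 0.024 and 0.34 across genes, and those of unlike-numbered samples at between -0.26 and 0.26. The highest value was that of replicate 3, so these correlations do not settle a pairing. As no source names a pairing, the numbers were not taken to pair samples. The block left *LAC1* at an adjusted *p*-value of 0.073 and *STE4* at 0.065, and library totals also left *STE4* at 0.065, all in edgeR. With 3 samples per strain, the spread between colonies limits the precision, most for *SUR7* and *FMP45*.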

Other observations

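The genes nearest in profile to the less uniform of the 9 were looked at after the values were seen, as values with no explanation. *SUR7* was most like YDR391C and *CTS1*, the gene of the secreted chitinase that separates daughter from mother cells, with root mean square differences of 0.081 and 0.084 on the log2 scale over the 6 samples. *CTS1* had 209.3, 480.5 and 345.0 CPM in *kcs1* mutant replicates 1, 2 and 3, and 377.0, 348.8 and 305.7 CPM in wild type, so that its lowest and highest values were in the same samples as those of *SUR7*. *FMP45* was most like *TSL1*, which encodes a subunit of the trehalose synthase complex, with a root mean square difference of 0.069. *TSL1* had 208.2, 164.2 and 113.8 CPM in the *kcs1* mutant, and 177.1, 235.5 and 154.9 CPM in wild type. *NCE102* was most like *CRP1* (0.024), with 221.8, 176.7 and 237.9 CPM in the *kcs1* mutant, and 217.8, 230.8 and 236.0 CPM in wild type.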
